A study of Mus musculus with 19 samples.

Results

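Some meiotic break hotspots in the testis of STUS hybrids were listed with no PRDM9 allele held responsible for them. These unassigned hotspots were taken as every autosomal entry marked UNK in the tables of the B6/STUS and HUM/STUS genotypes; the files do not explain this mark, and it was read as no allele assigned. There were 2270 of 17309 autosomal hotspots in B6/STUS and 1540 of 10031 in HUM/STUS, which makes 3810 entries of 27340, or 3724 distinct positions when centres within 500 bp are merged between the tables. The study crossed C57BL/6J (B6) with wild-derived strains and mapped breaks in whole testis of adult males by DMC1 SSDS, in which single-stranded DNA bound by DMC1 is precipitated and sequenced. Both genotypes used here are labelled B6xSTUS, and STUS is a M. m. musculus strain. The study bred both directions and names these hybrids both STUSB6F1 and B6STUSF1; unassigned hotspots on the X chromosome had a median of 100% of reads from B6 in both tables, which is the X of a B6 mother. In B6/STUS the Prdm9 alleles are the B6 and the STUS one, and in HUM/STUS the B6 allele carries in place of its own zinc fingers those of the human B allele (HUM). The B6xSPRETUS hybrids with B6/SPRETUS, HUM/SPRETUS and CAST/SPRETUS alleles serve as reference tables for positions. Each genotype had 1 DMC1 library, so no value has a replicate error and no test between genotypes was made.

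PRDM9 binds DNA through an array of zinc fingers and marks the bound site with H3K4me3, and meiotic double-strand breaks then form there. The DNA ends are resected and DMC1 coats the single strand that searches the homologous chromosome. Over generations, binding sites are lost from the chromosomes of a lineage that carries the matching allele, so that in a hybrid the breaks of one allele often fall on the chromosome of the other parent.

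Promoter sequences show what lies under the unassigned hotspots that reach a gene start. The 4 below are the strongest members, up to 3 a table, whose centre falls in a RefSeq promoter window of GRCm38.p6 before the gene start or at most 10 bases after it. Each is the 250 bases upstream of the start, 5′ to 3′ on the strand of the gene, and capitals mark the bases within 10 of the hotspot centre, as far as they lie upstream. They are chr7:75029961-75030210 on the + strand, chr17:79667883-79668132 on the - strand, chr11:46739973-46740222 on the + strand and chr10:77613459-77613708 on the + strand. They are B6 reference sequence, and the STUS chromosome may differ.
4930533N22Rik: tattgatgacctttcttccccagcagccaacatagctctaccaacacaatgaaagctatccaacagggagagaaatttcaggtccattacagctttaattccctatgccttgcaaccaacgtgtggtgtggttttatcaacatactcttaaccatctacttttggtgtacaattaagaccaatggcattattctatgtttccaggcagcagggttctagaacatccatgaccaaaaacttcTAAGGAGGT
Gm33006: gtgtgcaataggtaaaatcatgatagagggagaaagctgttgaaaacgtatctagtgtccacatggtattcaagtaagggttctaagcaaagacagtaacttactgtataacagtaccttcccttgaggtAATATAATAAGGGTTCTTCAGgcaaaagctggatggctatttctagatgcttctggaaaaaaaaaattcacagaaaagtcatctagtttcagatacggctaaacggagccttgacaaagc
Havcr1: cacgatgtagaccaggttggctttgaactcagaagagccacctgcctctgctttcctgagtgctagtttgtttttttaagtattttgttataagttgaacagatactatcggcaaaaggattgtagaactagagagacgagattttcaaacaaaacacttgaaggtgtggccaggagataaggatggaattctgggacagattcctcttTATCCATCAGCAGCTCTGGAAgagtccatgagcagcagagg
Sumo3: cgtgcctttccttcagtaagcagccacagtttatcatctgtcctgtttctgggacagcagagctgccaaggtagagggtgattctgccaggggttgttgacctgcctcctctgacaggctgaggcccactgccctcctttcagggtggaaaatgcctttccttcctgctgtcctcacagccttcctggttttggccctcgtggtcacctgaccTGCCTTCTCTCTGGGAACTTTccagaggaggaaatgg
The first, at the start of the long noncoding RNA gene 4930533N22Rik, had a DMC1 signal of 859 in B6/STUS, with 0.711% of the reads on B6. Gm33006, whose window lies inside the gene Rmdn2, had a signal of 441 and 2.03% from B6. Havcr1, which encodes a receptor of the TIM family known as kidney injury molecule, had a signal of 257 and a B6 fraction of 0. Sumo3, which encodes a small ubiquitin-like modifier, is from HUM/STUS, with a signal of 100.1 and 63.8% from B6. These windows of 300 bases hold 1, 3, 4 and 2 CG dinucleotides in the order printed, against a median of 7 (quartiles 3 and 20) over 32851 promoter windows. Over all 18 unassigned hotspots of B6/STUS in a promoter window the median was 11.5, against 5 for hotspots with an allele there, so the 3 printed from that table lie below it. In HUM/STUS it was 2 (n = 3), against 3.

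Unassigned hotspots were a minority that grew toward the weak end of each library. They made up 13.1% of autosomal hotspots in B6/STUS (95% Wilson interval 12.6 to 13.6%) and 15.4% in HUM/STUS (14.7 to 16.1%). Across the 19 autosomes their share ran from 10.97% on chromosome 8 to 17.1% on chromosome 9 in B6/STUS, and from 12.1% on chromosome 15 to 16.8% on chromosome 10 in HUM/STUS. The SPRETUS tables held 5103 of 18522 (B6/SPRETUS), 1924 of 15727 (HUM/SPRETUS) and 958 of 9592 (CAST/SPRETUS). All intervals here cover counting error within a library only, since hotspots of a library are not replicates.

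In the weakest decile of hotspots by DMC1 signal, 24.05% had no allele in B6/STUS and 44.1% in HUM/STUS. In the strongest decile it was 9.07% and 8.76%. Between the second and the last decile the tables differed little, from 18.3 to 9.07% and from 17.8 to 8.76%. The plot of this share against signal shows a fall over the lower deciles. Above the fifth the course was nearly flat in B6/STUS. In HUM/STUS it went on falling slowly, from 11.9% in the sixth to 8.76% in the last.

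**Figure D1:**
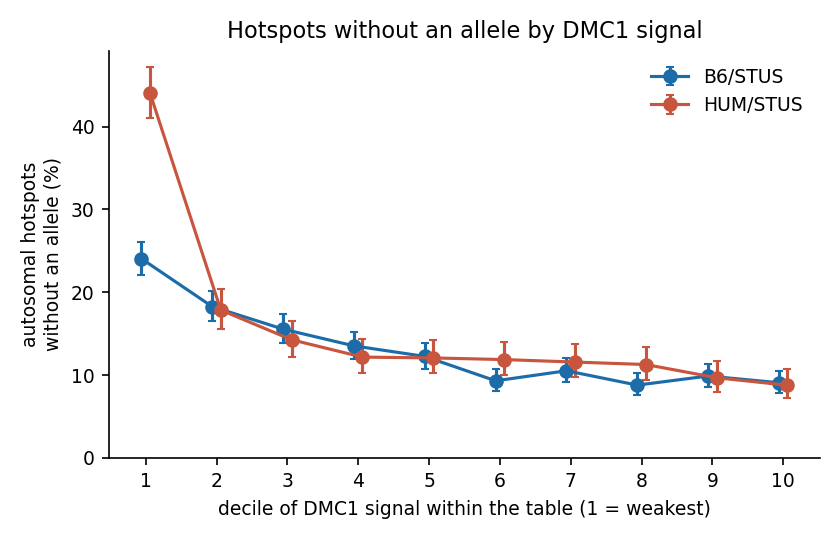
Share of autosomal hotspots without an allele (%) in each decile of DMC1 signal, with the hotspots of each table ranked on their own. Points are shares, bars 95% Wilson intervals; the first decile stands out in HUM/STUS at 44.1%, against 24.05% in B6/STUS.

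The DMC1 signal comes from the hotspot caller of the authors with unknown scaling to depth, so it was compared only within a table. Unassigned hotspots had a median signal of 29.0 in B6/STUS (quartiles 15.4 and 83.3), against 50.1 for hotspots with an allele, 56.7 for B6 and 46.9 for STUS. The ratio of the medians was 1.73. In HUM/STUS the median was 22.9 (quartiles 13.8 and 45.3), against 36.0 for hotspots with an allele, 36.6 for HUM and 35.8 for STUS, a ratio of 1.57. Of the members, 1477 of 2270 (65.1%) lay under the median of hotspots with an allele in B6/STUS, against 52% of all autosomal hotspots, and 1030 of 1540 (66.9%) in HUM/STUS, against 52.6% of all. The members' median was the lower one on 19 of 19 autosomes in both tables. The distributions nonetheless overlapped over nearly their whole range: signals of members ran from 7.56 to 1016 in B6/STUS and from 7.498 to 402 in HUM/STUS. They held 10.02% of the summed autosomal signal in B6/STUS and 11.1% in HUM/STUS. A small class of hotspots marked KO, 59 and 67 in number, was weaker still, with medians of 12.1 and 15.2.

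Unassigned hotspots also differed from hotspots with an allele in the chromosome that was cut. The B6 fraction gives which part of the SNP-carrying DMC1 reads was of B6 origin; a hotspot is called matched here at 25 to 75%, ends included. In B6/STUS, 1999 of 2270 members had a fraction, and its median was 6.45%, against 23.95% for B6 hotspots and 82.1% for STUS hotspots. In HUM/STUS, 1135 of 1540 had one, with a median of 18%, against 46.8% for HUM and 87.1% for STUS hotspots. The part without a fraction was 11.9% of members in B6/STUS and 26.3% in HUM/STUS, against 8.75 and 9.61% of hotspots with an allele. The number of reads behind each fraction is unknown.

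Reads came mainly from the STUS chromosome at most unassigned hotspots that had a listed fraction. Under 25% from B6 was found at 1291 members in B6/STUS, 64.6% of those with a fraction, where all autosomal hotspots with a fraction had 31%. In HUM/STUS it was 656 members, 57.8%, against 17.4% of all. Of the B6 hotspots in B6/STUS 50.3% lay under 25%, and of the HUM hotspots in HUM/STUS 14.7%. At the far end, 899 members (45.0%) in B6/STUS had under 5% of reads from B6, against 20.6% of all, and 253 of the 899 were at 0. In HUM/STUS it was 177 (15.6%), against 3.51% of all, and 18 were at 0.

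Matched members were correspondingly few. There were 296 in B6/STUS, 14.8% (95% Wilson interval 13.3 to 16.4%), against 34.2% of all autosomal hotspots with a fraction, 38.1% of B6 and 36.3% of STUS hotspots. HUM/STUS had 335, 29.5% (26.9 to 32.2%), against 46.5% of all, 63.7% of HUM and 30.7% of STUS hotspots, so that here the members' share lay near that of STUS hotspots. The matched share of members was below that of hotspots with an allele on 19 of 19 autosomes in B6/STUS and on 18 of 19 in HUM/STUS; the exception was chromosome 14, at 50 against 47.2%. The median B6 fraction of members was the lower one on 19 of 19 autosomes in both tables. A minor group of members was cut mainly on the B6 chromosome: 412 (20.6%) in B6/STUS and 144 (12.7%) in HUM/STUS had over 75% of reads from B6, against 34.8 and 36.1% of all.

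**Figure D2:**
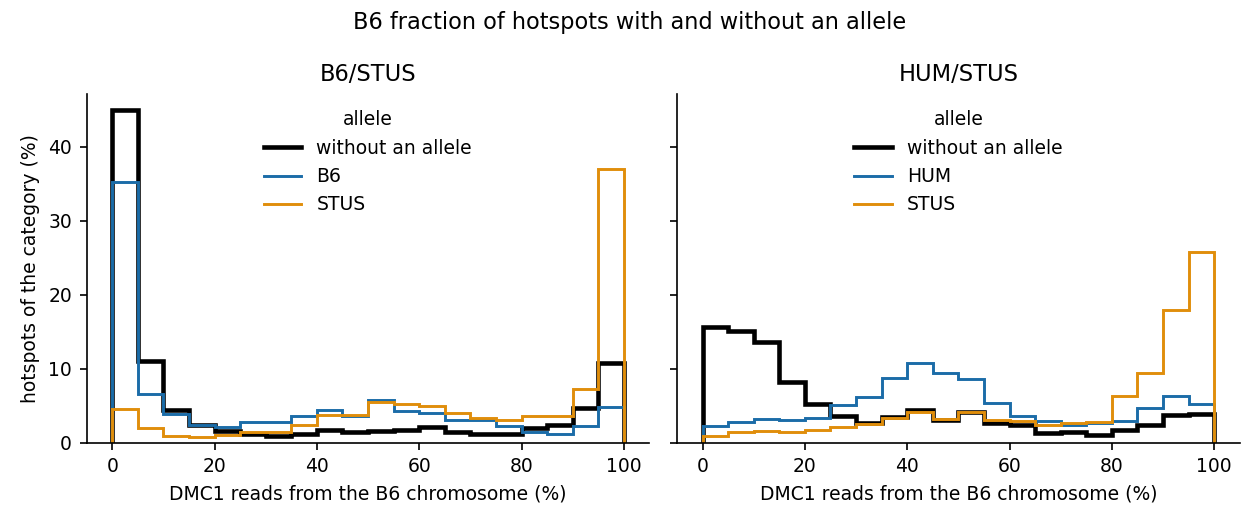
Distribution of the B6 fraction (% of DMC1 reads, bins of 5 percentage points) for hotspots without an allele and for each allele, as % of the hotspots of the category with a fraction. In B6/STUS the unassigned hotspots pile up under 5% with a smaller peak near 100%; in HUM/STUS they spread over 0 to 20%, where HUM and STUS hotspots are rare.

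The median B6 fraction of members fell with signal. By quartile of signal of the table, the members' median B6 fraction in B6/STUS was 20, 5.56, 3.45 and 1.26% from weakest to strongest. B6 hotspots of the same quartiles had 50, 44.7, 28.6 and 1.43%. The shares of members under 25% were 52.8, 70.6, 64.7 and 74.9%, which is no steady rise. In the top quartile 74.9% of members and 81.5% of B6 hotspots lay under 25%, while 13.9% of members and 2.203% of B6 hotspots lay over 75%. In HUM/STUS the members' medians were 29.4, 15.4, 11.9 and 7.25%, while HUM hotspots stayed between 45.5 and 52.2%. The members' share under 25% there was 44.4, 68.1, 62.9 and 57.1%, so it rose once and then fell, and the share over 75% was 12.4, 8.81, 15.1 and 15.0%. STUS hotspots moved the opposite way, from 64.3 to 96.2% in HUM/STUS. Weak hotspots may carry few SNP reads, and the part of read number in these medians was not tested.

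The strongest members show this bias in single positions. In B6/STUS the 5 largest signals were at chr17:15623032 (1016), chr19:10669712 (891), chr10:9063924 (882), chr7:75030212 (859, the 4930533N22Rik start printed above) and chr1:186940378 (849.9). Their B6 fractions were 0.457, 5.44, 4.90, 0.711 and 0.455%. The second lies within Pga5, a pepsinogen gene, and the last within the long noncoding RNA gene Gm39732; the first is 8.76 kb from the noncoding gene 4933401D09Rik and the third 35.7 kb from Gm51794. Of the 20 strongest members in B6/STUS, 18 had under 25% from B6 and 17 under 10%. In the top signal quartile of that table, 41.6% of all hotspots with a fraction and 81.5% of B6 hotspots lay under 25%. Strong hotspots cut mainly on STUS were thus not particular to members.

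HUM/STUS was more mixed at the top. Its strongest member, at chr3:79668795 within the relaxin receptor gene Rxfp1, had a signal of 402 and 1.16% of reads from B6. The next, at chr14:104204457 and 0.543 kb from Gm52151, had 284 and 41.4%. At chr17:5709953, within the palmitoyltransferase gene Zdhhc14, the values were 263 and 2.30%. At chr15:36783262, within Ywhaz, which encodes a 14-3-3 protein, they were 253.5 and 42.7%. The fifth, at chr4:78169717 within the receptor tyrosine phosphatase gene Ptprd, had 244 and 94.1%. Of the 20 strongest, 11 had under 25% from B6, 6 were matched and 3 had over 75%. In the top signal quartile, all hotspots of HUM/STUS with a fraction had 14.9, 40.7 and 44.4% in these classes.

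**Figure D3:**
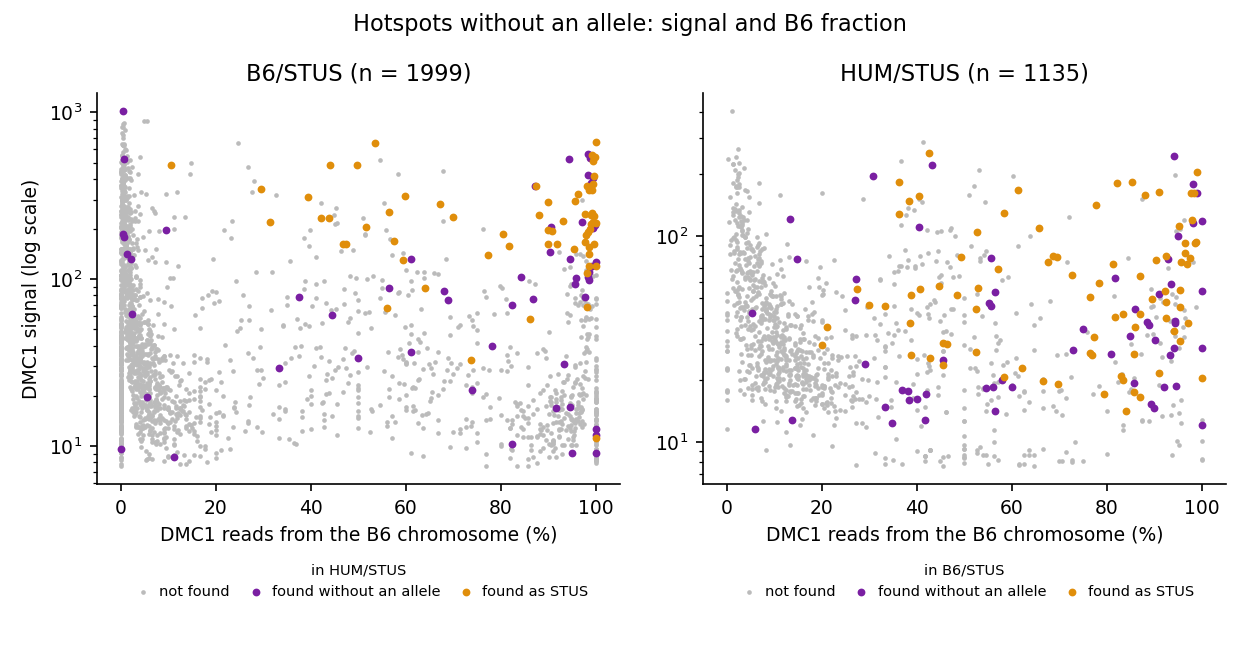
DMC1 signal (log scale) against the B6 fraction (%) of each hotspot without an allele, coloured by what lies within 500 bp in the other STUS table. Points found again are rare under 25% from B6 (12 of 1291 in B6/STUS, 7 of 656 in HUM/STUS) and less so over 75% (76 of 412 and 76 of 144).

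The authors identified the allele of a hotspot by comparison with mice of other alleles, and they drew the STUS motif from positions that both STUS hybrids share. A position that recurs may thereby have gained an allele and left the members, so that low recurrence can be part of how they were chosen. The shares of positions found in other tables are therefore counts, the main ones with their background beside them. A distance between a share and its background may stem from the marking.

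Some unassigned hotspots were called in both STUS hybrids. Of the 2270 members in B6/STUS, 153 (6.74%, 95% Wilson interval 5.78 to 7.85%) had a centre within 500 bp in HUM/STUS, where 21.8% of all autosomal hotspots did. Of these, 86 were unassigned there too and 67 carried the STUS allele (2.95% of members, against 20.5% of all). The other 2117 members had no hotspot there. Of the 1540 members in HUM/STUS, 174 (11.3%, 9.81 to 12.98%) were found in B6/STUS, where 37.7% of all were. There 86 were unassigned and 88 carried STUS (5.71% of members, against 35.6% of all), and 1366 were absent. The 86 shared unassigned positions are 3.79% of the members of one table and 5.58% of those of the other. Of all autosomal hotspots, 1.01% in B6/STUS and 1.53% in HUM/STUS lay at an unassigned hotspot of the other table, so here members lay above the background. No member lay at a B6, HUM or KO hotspot of the other STUS table.

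Among hotspots with an allele the shares went by the alleles in common. The STUS allele is present in both hybrids, and 94.2% of STUS hotspots in HUM/STUS were STUS hotspots in B6/STUS too, while 39.2% of those in B6/STUS were found as STUS in HUM/STUS. Hotspots of the allele that differs recurred at 0.262% (B6) and 0.338% (HUM). KO hotspots recurred at 74.6 and 65.7%. The median offset of members found again was 78 bp in B6/STUS and 97 bp in HUM/STUS, against 54 and 53.5 bp for STUS hotspots.

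Recurrence followed the B6 fraction. Members with under 25% of reads from B6 were found in the other STUS table at 12 of 1291 (0.9295%) in B6/STUS and 7 of 656 (1.07%) in HUM/STUS. Matched members were found at 30 of 296 (10.1%) and 61 of 335 (18.2%). Members with over 75% were found at 76 of 412 (18.4%) and 76 of 144 (52.8%). STUS hotspots also recurred more with a rising B6 fraction, from 26.4 to 53.4% in B6/STUS and from 88.1 to 99.4% in HUM/STUS. Without a listed fraction, members were found at 35 of 271 (12.9%) in B6/STUS and 30 of 405 (7.41%) in HUM/STUS. All hotspots without a fraction were found at 9.70 and 22.5%, so members lay above the background in B6/STUS only. STUS hotspots without a fraction were found at 10.9 and 69.7%.

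**Figure D4:**
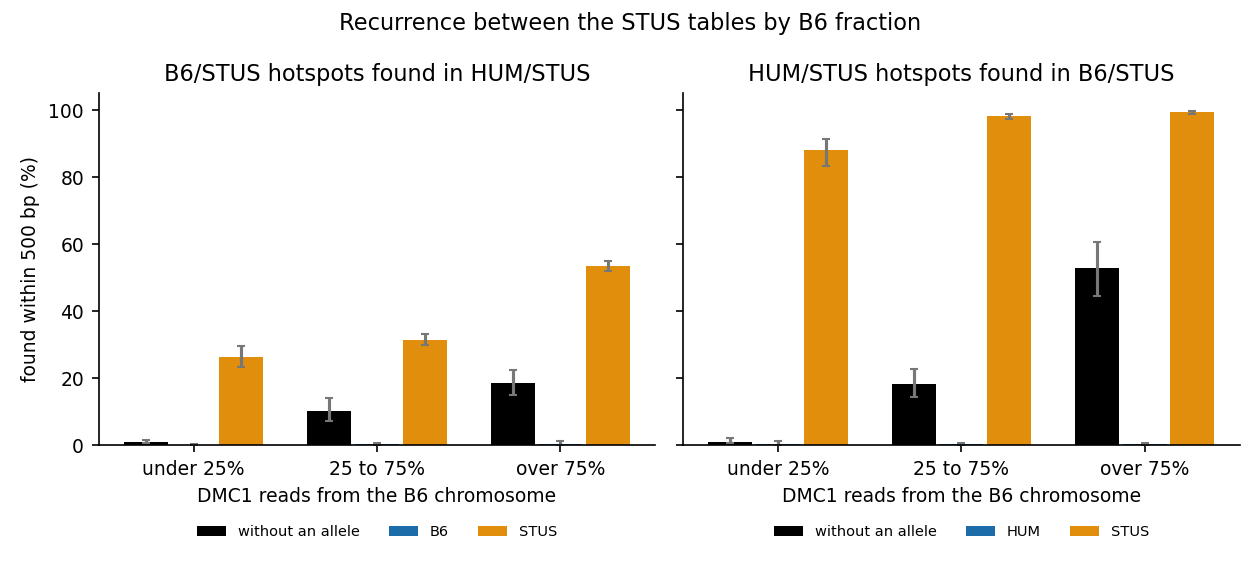
Percent of hotspots with a centre within 500 bp in the other STUS table, by B6 fraction and allele; bars are shares and whiskers 95% Wilson intervals. Members rise from 0.9295 to 18.4% in B6/STUS and from 1.07 to 52.8% in HUM/STUS, and B6 and HUM hotspots stay under 0.5% in each class.

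Recurrence also varied with signal, without a steady rise for members in B6/STUS. By signal quartile of B6/STUS, 5.08, 1.38, 6.24 and 18.5% of members were found in HUM/STUS, against 2.45, 8.69, 53.7 and 97.4% of STUS hotspots. Of all autosomal hotspots it was 3.14, 4.92, 29.5 and 49.8%, so members lay above the background in the weakest quartile only. In HUM/STUS 8.16, 8.72, 14.5 and 19.7% of members were found in B6/STUS, against 88.0, 96.9, 98.5 and 99.3% of STUS hotspots. Of all autosomal hotspots there it was 32.5, 37.5, 38.8 and 41.9%.

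The 86 positions unassigned in both hybrids had median signals of 30.2 in B6/STUS and 19.7 in HUM/STUS, at the 37.0th and 22.2nd percentile of their tables. A B6 fraction was listed in both at 53 of them, with medians of 87.1% in B6/STUS and 81.0% in HUM/STUS, far above those of members as a whole. Across these positions, which share their DNA but not their library, Spearman's rho was 0.72 for signal (n = 86) and 0.79 for the B6 fraction (n = 53). The fractions were within 10 percentage points of each other at 28 of 53 and fell in the same class at 37, of which 25 were over 75% in both, 9 matched and 3 under 25%. Of the 11 positions under 25% in B6/STUS, 8 were at 25% or more in HUM/STUS.

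**Figure D5:**
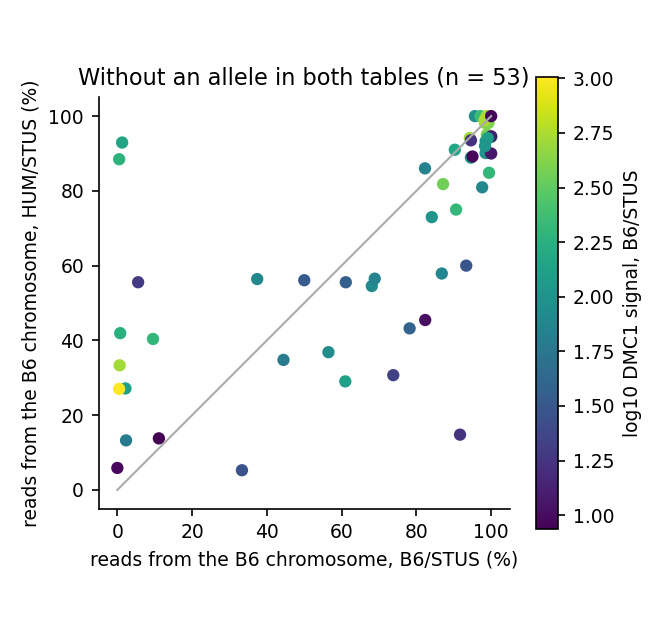
B6 fraction (%) in HUM/STUS against that in B6/STUS at the 53 positions without an allele in both tables and with both fractions; colour gives the log10 DMC1 signal in B6/STUS and the line marks equality. Of the 53 points, 25 lie over 75% in both, and 8 positions under 25% in B6/STUS lie at 25% or more in HUM/STUS.

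The shared positions that ranked highest in both tables were all cut mainly on B6. At Ptprd the centres were 1 bp apart, with signals of 529 and 244 and B6 fractions of 94.3 and 94.1% in B6/STUS and HUM/STUS. At chr13:101785216, 17 kb from Pik3r1, which encodes a regulatory subunit of PI3-kinase, the signals were 565 and 162 and the fractions 98.2 and 98.9%. Within Fam120a, at chr13:48903066, they were 405 and 178, with 99.3 and 98.2%. At chr11:44652508, within Ebf1, a transcription factor of B-cell development, they were 532 and 119, with 98.8 and 100%, but the centres were 271 bp apart. At chr2:23155449, where Mastl and Yme1l1 overlap, they were 424 and 115, with 98.4 and 98.2%.

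Members that carried the STUS allele in the other table were strong. The 67 such members in B6/STUS had a median signal of 219 and a median B6 fraction of 92.5%, against 30.2 for those found unassigned and 28.1 for those not found. Their partners in HUM/STUS had a median signal of 39.6. The 88 in HUM/STUS had a median signal of 51.7 and a B6 fraction of 78.4%, and their partners in B6/STUS one of 97.4. Between the tables the fractions of these positions were within 10 percentage points at 36 of 62 and 48 of 83 that had both.

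The same limit holds for an allele met elsewhere. In any of the other 4 tables, 200 of the 2270 in B6/STUS (8.81%, 95% Wilson interval 7.71 to 10.05%) lay within 500 bp of a hotspot with an allele, where 43.2% of all autosomal hotspots did. In HUM/STUS it was 237 of 1540 (15.4%, 13.7 to 17.3%), against 69.8% of all. A further 179 members in B6/STUS (7.89%) and 185 in HUM/STUS (12.01%) were found elsewhere only without an allele. Of all autosomal hotspots, 273 of 17309 (1.58%) and 270 of 10031 (2.69%) were, so in this share members lay above the background. In no other table at all were 1891 (83.3%) in B6/STUS and 1118 (72.6%) in HUM/STUS, against 51.0 and 19.3% of hotspots with an allele. More than 1 allele was met at 28 (1.23%) and 40 (2.60%) members, against 2.85 and 5.02% of all, most often HUM with STUS (24) in HUM/STUS and B6 with STUS (11) in B6/STUS.

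The alleles met were mainly those the hybrid itself carries, which was so for all hotspots too. Members in B6/STUS were B6 hotspots in B6/SPRETUS at 125 positions and STUS hotspots in HUM/STUS at 67. Of members under 25% from B6, 49 of 1291 lay at such a B6 hotspot, against 2060 of 4867 of all hotspots under 25%. Among matched ones it was 48 of 296 against 1000 of 5383, and over 75% it was 19 of 412 against 250 of 5472. Without a fraction it was 9 of 271 against 146 of 1587. CAST hotspots were met at 23 and HUM hotspots at 15. Of all autosomal hotspots in B6/STUS, 20.5% were STUS hotspots in HUM/STUS, against 2.95% of members. Under any mark, 21.4% of all were found in B6/SPRETUS, 1.33% in HUM/SPRETUS and 5.23% in CAST/SPRETUS, against 10.8, 2.73 and 2.78% of members. Members in HUM/STUS were HUM hotspots in HUM/SPRETUS at 166 positions and STUS hotspots in B6/STUS at 88. Of members under 25% from B6, 11 of 656 lay at such a HUM hotspot, against 369 of 1529 of all hotspots under 25%. Among matched ones it was 97 of 335 against 2010 of 4097, and over 75% it was 36 of 144 against 698 of 3184. Without a fraction it was 22 of 405 against 268 of 1221. CAST hotspots were met at 18, B6 at 6 and SPRET at 1. Of all in HUM/STUS, 35.6% were STUS hotspots in B6/STUS, against 5.71% of members. Under any mark, 35.9% of all were found in HUM/SPRETUS, 1.62% in B6/SPRETUS and 5.51% in CAST/SPRETUS, against 19.4, 1.88 and 2.92% of members. Unassigned in both were 120 positions of B6/STUS and B6/SPRETUS, and 132 of HUM/STUS and HUM/SPRETUS. These are 5.29 and 8.57% of members. Of all autosomal hotspots, 162 of 17309 and 181 of 10031 lay at unassigned hotspots of the same SPRETUS tables.

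The B6 fraction of these members was higher than that of members in general. In HUM/STUS the 166 at HUM hotspots had a median of 50.5%, and 97 of 144 with a fraction were matched. In B6/STUS the 125 at B6 hotspots had 39.1%, with 48 of 116 matched and 49 under 25%; all B6 hotspots had 23.95% there and 12.8% in B6/SPRETUS. Members found in no other table had medians of 5.17% in B6/STUS and 11.95% in HUM/STUS, with 70.1 and 75.9% under 25%. Their median signals were 25.4 and 20.8, against 158 and 46.8 for members with an allele elsewhere. From under 25% to matched to over 75%, an allele elsewhere was met at 4.18, 22.97 and 15.3% of members in B6/STUS. In HUM/STUS it was 1.98, 35.8 and 52.8%. All autosomal hotspots had 47.4, 38.5 and 50.6% in B6/STUS. In HUM/STUS they had 38.7, 74.8 and 88.3%, so the rise there was not particular to members. B6 hotspots under 25% had 72.0% and HUM hotspots 57.7%.

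Single positions show how the tables disagree. The strongest member of B6/STUS, chr17:15623032, was unassigned in HUM/STUS as well, 11 bp away, with a signal of 48.8 and a B6 fraction of 27.0%. In HUM/SPRETUS a HUM hotspot with a signal of 42.0 had the same centre. The members at chr19:10669712 in Pga5 and chr10:9063924 were B6 hotspots in B6/SPRETUS, with signals of 538 and 576 and B6 fractions of 2.88 and 0.384%. In HUM/STUS the member in Ywhaz was a STUS hotspot in B6/STUS, 13 bp away, with a signal of 328 and 44.7% from B6, and a CAST hotspot in CAST/SPRETUS with 36.1 and 37.3%. At chr11:62857260, within the F-box gene Fbxw10, and at chr17:80625950, within the kinase gene Map4k3, members with signals of 231 and 221 and fractions of 36.7 and 43.2% were HUM hotspots in HUM/SPRETUS. The Map4k3 position was also a B6 hotspot in B6/SPRETUS, 109 bp away with a signal of 123, and was unassigned in B6/STUS, with a signal of 39.7 and 78.2% from B6.

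H3K4me3 was measured only in the SPRETUS hybrids, so it bears on members through the position they share. The authors' enrichment over input was ranked within each SPRETUS table. Where members in B6/STUS met B6 hotspots of B6/SPRETUS, the median percentile of enrichment there was 52.6, and where they met unassigned ones, 54.6. Members in HUM/STUS met HUM hotspots of HUM/SPRETUS at a median percentile of 57.8 and unassigned ones at 30.7. For all B6 hotspots of B6/SPRETUS the median was 46.3 and for all HUM hotspots of HUM/SPRETUS 58.9. For all unassigned hotspots of those tables the medians were 27.5 and 32.4. At unassigned hotspots of the remaining tables the medians varied widely. For members of B6/STUS they were 3.21 in HUM/SPRETUS (n = 47) and 39.7 in CAST/SPRETUS (n = 40). For members of HUM/STUS they were 11.6 in B6/SPRETUS (n = 22) and 1.02 in CAST/SPRETUS (n = 27). All unassigned hotspots of CAST/SPRETUS had 35.3.

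Gene starts lay close to more unassigned hotspots in B6/STUS than in HUM/STUS. The list of starts at hand has gaps: it lacks all of chromosome 18, and over the autosomes it holds 16457 of 20665 protein-coding genes (79.6%) and 9291 of 12408 lncRNA genes (74.9%), with the fewest protein-coding ones on chromosome 15 (54.4%). Shares near a start are thus too low for members and background alike. With chromosome 18 left out, 109 of 2164 members in B6/STUS (5.04%, 95% Wilson interval 4.19 to 6.04%) had a start within 1 kb, against 2.19% of all autosomal hotspots, 1.66% of B6 and 1.80% of STUS hotspots. In HUM/STUS it was 33 of 1486 (2.22%, 1.59 to 3.10%), against 1.72% of all, an interval that includes the background. Where the nearest of these genes had a listed start, it was 108 of 1790 (6.03%) against 2.60% of all in B6/STUS, and 31 of 1217 (2.55%) against 2.05% in HUM/STUS. Centres inside a promoter window numbered 18 in B6/STUS (0.832%, against 0.367% of all) and 3 in HUM/STUS (0.202%, against 0.259%). The 3 are in the windows of Sumo3, of Acin1 at chr14:54653637 (signal 48.6) and of Nfia, a transcription factor gene, at chr4:97581967 (signal 41.2, B6 fraction 0). The Sumo3 and Acin1 positions were HUM hotspots in HUM/SPRETUS, 72 and 241 bp away.

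Members near a start were matched more often than the rest in B6/STUS. Their median B6 fraction was 43.8%, against 6.06% for members away from starts, and 35 of 94 (37.2%) were matched, against 13.6%; 36 had under 25% and 23 over 75% from B6. Of all hotspots with a start within 1 kb, 98 of 324 (30.2%) were matched, with a median of 60.8%. Of matched members 12.4% had a start within 1 kb, and of members under 25% from B6 2.92%. Of all autosomal hotspots, whatever their fraction, 2.19% had one, and their shares by class were not computed. In HUM/STUS the median near starts was 34.8% (n = 25), against 17.5%, with 11 under 25%, 9 matched and 5 over 75%; of all hotspots near a start 60 of 143 were matched there. The 3 promoters printed for B6/STUS are among those under 25%, with 0 to 2.03%.

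Unassigned hotspots also lay next to other hotspots more often. Another hotspot of the same table was within 2 kb of 59 members in B6/STUS (2.60%), against 1.07% of all autosomal hotspots, and of 31 in HUM/STUS (2.01%), against 0.837%. In 27 and 14 of these cases the neighbour was unassigned too, against 59 of 185 and 31 of 84 such cases among all hotspots. Median distances to the nearest hotspot were similar, 40.1 kb for members against 42.3 kb for all in B6/STUS and 72.7 against 69.6 kb in HUM/STUS.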

How the data were processed

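DMC1 SSDS of whole testis gave 1 library per genotype. Per the labels, BWA and build mm10 were used. The authors called hotspots and deposited 1 table per genotype with a DMC1 signal, of unknown scaling to depth, a fraction of B6 reads, without read numbers, and, for SPRETUS hybrids, a ratio of H3K4me3 enrichment over input, of unstated formula and taken as pooled over samples. The 25 other columns of values were not used. The files explain neither the mark UNK nor KO. Hotspots marked UNK on the autosomes were the members, and those marked KO counted among hotspots with an allele. Each was matched to the nearest centre within 500 bp, ends included, in the other 4 tables. Gene starts, from a list with gaps, and genes are from RefSeq (GRCm38.p6). Named hotspots were the 5 strongest per table, the 5 unassigned in both tables ranked by the lower percentile, the 3 strongest per table with an allele elsewhere, and up to 3 per table in a promoter window. The members and lists were chosen with earlier results of these data known. Python 3.11.15, pandas 2.3.3, numpy 2.4.6 and matplotlib 3.10.9 were used, and the matching was checked on simulated positions.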

Additional observations from a re-analysis of the deposited data

How the results depend on the processing

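No paired analysis was possible because there was 1 DMC1 library per genotype. Of 66 recomputed values, 44 stayed within the 95% interval of the reported one, those without the distal 3 Mb of each autosome and those of gene starts only where the nearest gene has a listed start (both chosen after seeing the data) among them. The rest follow, B6/STUS first. Only hotspots at or above the lower quartile of signal gave an unassigned share of 10.8 and 11.4%, a matched share of 24.1% in HUM/STUS, members found in the other STUS table of 13.8% in HUM/STUS, and an allele elsewhere at 12.3 and 23.0%. Only members without an allele elsewhere gave 69.4 and 72.4% under the median signal and matched shares of 12.6 and 23.2%. Only hotspots with a B6 fraction gave 59.5% under the median in HUM/STUS. Limits of 40 to 60% gave matched shares of 6.80 and 14.7%, limits of 10 to 90% gave 28.7 and 61.7%, and weighting by signal gave 12.4 and 26.6%. Matching within 1000 bp gave an allele elsewhere at 10.4% in B6/STUS. A gene start lay within 500 bp of 2.77 and 0.875%, against 1.08 and 0.830% of all autosomal hotspots. Within 2 kb it was 7.58 and 4.51%, against 4.48 and 4.26%. The changes with wider or narrower limits follow from the limits; the cause of the others was not tested. The unknown read numbers limit the B6 fraction of weak hotspots.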

Other observations

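Unassigned hotspots gathered at the distal ends of chromosomes 9 and 13 in B6/STUS. Within 3 Mb of the most distal hotspot of each autosome, 38 of 77 hotspots on these chromosomes had no allele, 49.4% (95% Wilson interval 38.5 to 60.3%), against 32 of 301 (10.6%) at the same ends of the other autosomes. On chromosome 9 it was 24 of 48 and on chromosome 13 14 of 29. The members there had median B6 fractions of 63 and 40%. Of the 38, 12 had a gene start within 1 kb. Over the autosomes of B6/STUS without chromosome 18 it was 5.04% of members and 2.19% of all hotspots. Starts near the other hotspots of these windows were not counted, so the 12 cannot be called particular to members. In HUM/STUS 8 of 35 hotspots there had no allele (22.9%, against 17.4% at the other ends). The SPRETUS tables had 39.0 against 32.0% (B6/SPRETUS), 20.6 against 10.03% (HUM/SPRETUS) and 23.3 against 8.14% (CAST/SPRETUS), so the share was the higher one at these 2 chromosomes in all 5 tables, with overlapping 95% intervals in HUM/STUS, B6/SPRETUS, HUM/SPRETUS and CAST/SPRETUS. The windows were chosen after their values were seen.

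On the X chromosome, 86 of 760 hotspots in B6/STUS (11.3%) and 66 of 494 in HUM/STUS (13.4%) had no allele. Their median signals were 20.3 and 12.4, against 52.5 and 41.4 for hotspots with an allele on the X. A B6 fraction was listed for 59 and 32 of them, with a median of 100% in both, and 54 and 29 had over 75%. Outside the pseudoautosomal region the X of a male has no homolog, and its fraction speaks only of the strain it came from.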
